A study of Mus musculus with 18 samples.

Results

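Short-term hematopoietic stem cells (ST-HSCs) of young and aged mice were compared here, in 6 of the 18 RNA sequencing libraries of the series, 3 at each age. They were chosen by their labels, and the remaining libraries hold long-term HSCs (LT-HSCs) and bulk-HSCs, 6 of each. All cells came from the bone marrow of Hoxb5-tri-mCherry mice on a C57BL/6J background, in which mCherry reports Hoxb5. The young mice were 2 to 3 months old and the aged mice 23 to 25 months old, and both ages carried the reporter and had no treatment named in the sources used here. Bulk-HSCs are the whole phenotypic HSC gate, ST-HSCs are its cells without the Hoxb5 reporter and LT-HSCs its cells with it, so the bulk gate contains both. Cells were enriched on c-Kit and double sorted. The number of mice behind each library is not given in the sources used here, so the spread between libraries may be technical in part. The question was which genes differ with age inside the fraction that reconstitutes blood only for a limited time.

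HSCs sit at the top of the blood hierarchy, and ST-HSCs lie just below LT-HSCs, which alone sustain blood formation through serial transplantation. With age the HSC pool is known to expand, to lose lymphoid output and to express more genes of the platelet lineage. Platelet genes such as Vwf, Selp and Itgb3 act in the clotting and adhesion of platelets, and they are also transcribed in HSCs.

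Between 18527435 and 22047374 counts per library fell on genes, and values are given as CPM, counts scaled to a common library size after TMM normalization, in which 3 counts equal 0.136 to 0.162 CPM. Those limits cover counting error only. Young replicate 3 stood apart. It had 11548 genes with a count, against 13039 and 13296 in the other young and 13526 to 13701 in the aged libraries. Among 9728 genes whose median over the 6 libraries was 200 counts or more, it had 0 counts for 166, whereas the other libraries lacked 2 to 10. In it 11 genes of at least 10 CPM exceeded the next highest ST-HSC library at least 10 times, together 6.16% of its counts, and the other libraries had 1 to 3 such genes. Ociad1 alone reached 26946 CPM, or 2.56% of its counts, against 114 to 151 CPM in the other libraries. The next peaks in this library were Pdcd2 at 10324 CPM, Mtdh at 5244, Eid1 at 4931 and Fbxo11 at 4501. Young libraries also varied more among themselves, with a median SD of 0.382 on the log2(CPM + 1) scale against 0.244 in aged libraries, and 2029 genes against 600 had an SD above 1.

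The RNA of Kit and Hoxb5, from the sort and the reporter, was compared between the ages. Kit, the stem cell factor receptor used for enrichment, had 1484, 1496 and 1426 CPM in young and 1481, 1463 and 1416 CPM in aged ST-HSCs. It was also high in LT-HSCs, with 1286, 1138 and 1243 CPM in young and 1319, 1274 and 1075 CPM in aged libraries. Hoxb5, absent by the reporter, had 3.83, 2.40 and 0 CPM in young and 4.56, 1.68 and 0.397 CPM in aged ST-HSCs. Both genes overlapped between the ages. Of the 12 stromal markers listed, 7 were at 0 counts in all 6 libraries and the whole list summed to 12.7 to 31.8 CPM in young and 30.4 to 39.4 CPM in aged libraries. The T cell genes Cd3e, Cd3g and Cd8a and the B cell genes Ms4a1, Pax5 and Ebf1 were at 0 throughout. Other lymphoid markers were counted. Cd79b had 25.1, 12.7 and 27.9 CPM in young and 26.1, 14.4 and 20.1 CPM in aged ST-HSCs. Lck had 16.5, 2.95 and 2.72 CPM in young and 5.19, 9.55 and 10.2 CPM in aged ST-HSCs. Thy1 had 4.06, 0 and 3.12 CPM in young and 6.41, 5.64 and 6.15 CPM in aged ST-HSCs, without overlap. Jchain, made by plasma cells, was counted only in aged ST-HSC replicate 2 among the 6, at 44.3 CPM. C1qc, a macrophage gene, peaked in aged replicate 1 at 11.5 CPM. Mature neutrophil and monocyte markers summed to 151 to 177 CPM in young and 136 to 176 CPM in aged libraries, most of it Lyz2. B and plasma cell markers summed to 18.3 to 27.9 CPM in young and 22.3 to 62.0 CPM in aged libraries, and mature erythroid markers to 23.04 to 34.3 and 14.2 to 47.3 CPM. The stromal, neutrophil and monocyte, B and plasma cell and mature erythroid lists had 2, 7, 3 and 4 tested members in that order. Of these 0 were called in edgeR and 2 had an unadjusted p under 0.05. DESeq2 called 1 in each of these lists except the stromal one and limma-voom 0. The T and NK cell list had 4 tested members and 1 call, Klrb1c, described below. Its sums were 6.07 to 27.2 CPM in young and 36.8 to 55.7 CPM in aged libraries, without overlap. Of 6 sex markers tested 0 were called, 0 had an unadjusted p under 0.05 and DESeq2 and limma-voom called 0. The part of such cells in the results below was not tested. In sorted pools of this kind fewer expressing cells and less RNA per cell cannot be told apart.

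Of 12808 genes tested, 109 were called (0.851%), of which 80 were higher in aged ST-HSCs (0.625%) and 29 were lower (0.226%), at a Benjamini-Hochberg adjusted p under 0.05 from the quasi-likelihood test of edgeR. Without a requirement on the test, all aged libraries lay above all young ones for 10.2% of the genes and below for 7.51%. The median log2 fold change over all tested genes was 0.02, with 6717 genes above 0 and 6081 below. Of the 109 genes, 37 kept an adjusted p under 0.05 in each of 6 fits that left out 1 ST-HSC library, 34 of them higher and 3 lower. The 3 lower genes were Myh10, Plxdc2 and Fasn. The count of changed genes was 73 without young replicate 3 and 45 to 64 without an aged library. Where leaving out a library ended the call of a gene named below, the largest adjusted p in those 6 fits is written after "up to" or given with the library.

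**Figure D1:**
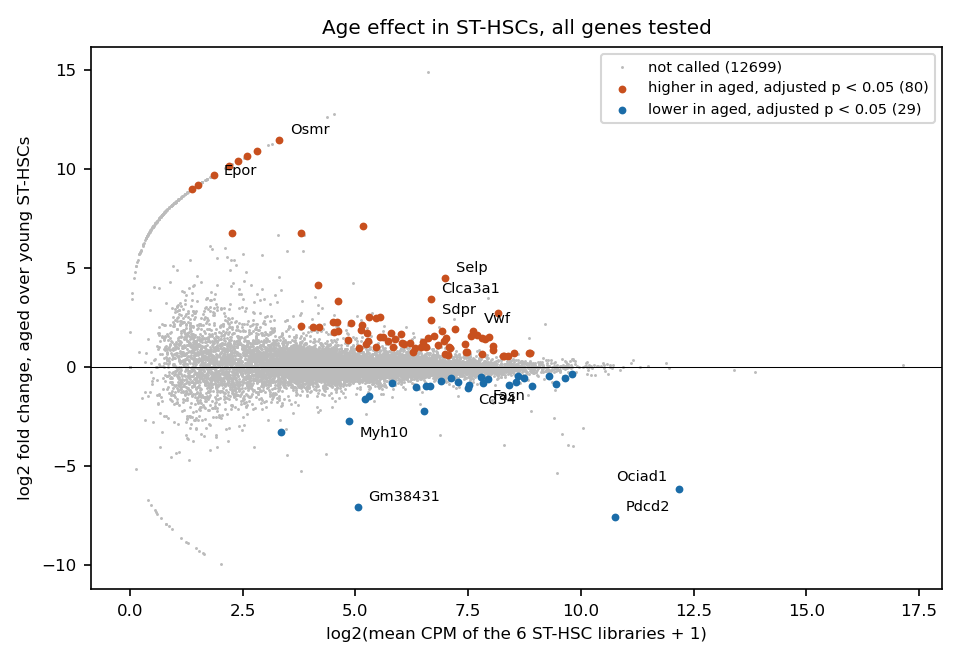
Log2 fold change of aged over young ST-HSCs (y axis) against the log2 of the mean CPM of the 6 libraries plus 1 (x axis) for 12808 genes, with the 80 higher genes in orange and the 29 lower genes in blue. The curved edges at the left hold genes at 0 counts in all libraries of 1 age, whose fitted value depends on the prior count, and the isolated low points Ociad1 and Pdcd2 are peaks of young replicate 3.

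Genes known from platelets were among those with the smallest p of the rise. Of 35 tested platelet and megakaryocyte genes, 7 rose and 0 fell, 28 had a fold change above 0, and the median log2 fold change was 0.48. Over all 12808 genes tested, 0.625% rose, 0.226% fell, 6717 had a fold change above 0 and 6081 below. The counts of each list below are to be read against these shares. The 7 were Selp, Sdpr, Vwf, Itgb3, Plek, Rgs18 and Itga6, and without 1 library 5 to 7 genes of the list were called. Like the other gene lists, the platelet list was chosen with earlier results of these data known. Selp encodes P-selectin, the adhesion receptor that platelets and endothelium move to their surface on activation. It had 9.59, 12.6 and 9.65 CPM in young ST-HSCs and 208, 262 and 259 CPM in aged ST-HSCs. Each aged value was over 10 times the highest young value, and the log2 fold change was 4.52 ± 0.51 (SE, adjusted p = 0.000119). Sdpr, also named Cavin2 and a coat protein of caveolae, had 31.6, 31.4 and 34.96 CPM in young and 145, 192 and 175 CPM in aged ST-HSCs. Its log2 fold change was 2.39 ± 0.24 (SE, adjusted p = 5.16e-05). Vwf, which lies on chr6:125546774-125686679 of mm10 and encodes the factor that ties platelets to damaged vessel walls, had 84.2, 69.9 and 102 CPM in young and 310, 251 and 349 CPM in aged libraries. Its log2 fold change was 1.83 ± 0.21 (SE, adjusted p = 0.000119). Itgb3, the beta subunit of the platelet fibrinogen receptor, had 92.2, 84.4 and 106 CPM in young and 229, 309 and 310 CPM in aged libraries, with an adjusted p of 8.48e-05. All 4 genes kept their call whichever library was left out.

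The remaining platelet genes rose less. Plek, a protein kinase C substrate of platelets and leukocytes, went from 128 ± 22.9 to 342 ± 56.4 CPM (SD, n = 3; edgeR, adjusted p = 0.00181). Rgs18, a brake on G protein signals in megakaryocytes, went from 131 ± 29.9 to 222 ± 21.4 CPM (SD, n = 3; edgeR, adjusted p = 0.0116), and its adjusted p reached 0.0817 when aged replicate 2 or young replicate 3 was left out. Itga6, the integrin subunit that pairs with beta 1 or beta 4 to bind laminin, went from 353 ± 67.3 to 580 ± 42.2 CPM (SD, n = 3; edgeR, adjusted p = 0.039), with adjusted p up to 0.160 without 1 library. Of 8 genes of finished megakaryocytes, 7 were tested, including Pf4, Gp9 and Gp1ba. In edgeR 0 were called, 0 had an unadjusted p under 0.05, and DESeq2 and limma-voom called 0. Their summed level was 44.7 to 69.8 CPM in young and 73.4 to 82.3 CPM in aged ST-HSCs. The sums did not overlap, while the highest single member in any library was 23.9 CPM.

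The list of genes that the field associates with HSC aging, which shares Selp, Sdpr, Vwf and Itgb3 with the platelet list, had 43 tested members. In aged ST-HSCs 18 rose and 0 fell, against 0.625% and 0.226% of all genes. A fold change above 0 was found in 40, against 6717 of 12808 genes, and the list's median log2 fold change was 1.33. Its summed level was 1986 to 2032 CPM in young and 4081 to 4580 CPM in aged ST-HSCs. Without 1 library 9 to 16 members were called, 9 of them without aged replicate 2. The list was written with results of these libraries in view and is no independent evidence of its direction. Clca3a1, a member of the calcium-activated chloride channel regulator family, had 19.9, 20.7 and 10.1 CPM in young and 186, 182 and 188 CPM in aged libraries. Its log2 fold change was 3.45 ± 0.34 (SE, adjusted p = 5.16e-05), and the aged libraries agreed to within 2.88 CPM (SD). Aldh1a1, an enzyme that oxidizes retinaldehyde to retinoic acid, had 118, 80.6 and 107 CPM in young and 328, 332 and 281 CPM in aged ST-HSCs (log2 fold change 1.62 ± 0.21, edgeR, adjusted p = 0.000564). Gda, guanine deaminase of purine breakdown, had 86.0, 133 and 169 CPM in young and 299, 415 and 393 CPM in aged ST-HSCs. Its fold change was 1.51 ± 0.22 on the log2 scale (SE, adjusted p = 0.0015). None of these values overlapped between the ages.

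Other members of the aging list that rose in each left-out fit were Ehd3, an endosomal recycling ATPase (29.6 ± 9.54 to 74.7 ± 12.8 CPM, SD, n = 3; edgeR, adjusted p = 0.00534), and Prcp, a lysosomal carboxypeptidase (129 ± 7.83 to 219 ± 7.29 CPM; edgeR, adjusted p = 0.00434). The rest lost the call when some library was left out. Nupr1, a stress-induced chromatin protein, rose from 14.6 ± 3.35 to 52.9 ± 16.7 CPM (SD, n = 3; edgeR, adjusted p = 0.0223, up to 0.103). Ghr, the growth hormone receptor, rose from 9.998 ± 1.78 to 34.4 ± 7.40 CPM (adjusted p = 0.0217, up to 0.103 in edgeR), and Sult1a1, a phenol sulfotransferase, from 70.1 ± 14.3 to 176 ± 41.0 CPM (adjusted p = 0.018, up to 0.102 in edgeR). Enpp5, a membrane protein of the ectonucleotide pyrophosphatase family, rose from 52.9 ± 4.99 to 160 ± 17.3 CPM (SD, n = 3; edgeR, adjusted p = 0.0198, up to 0.0778). Alcam, Neo1 and Gpr183 also rose. Alcam, a cell adhesion molecule of the immunoglobulin superfamily, was the least steady of these and went from 91.2 ± 13.7 to 180 ± 31.9 CPM (adjusted p = 0.0425, up to 0.183 in edgeR).

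**Figure D2:**
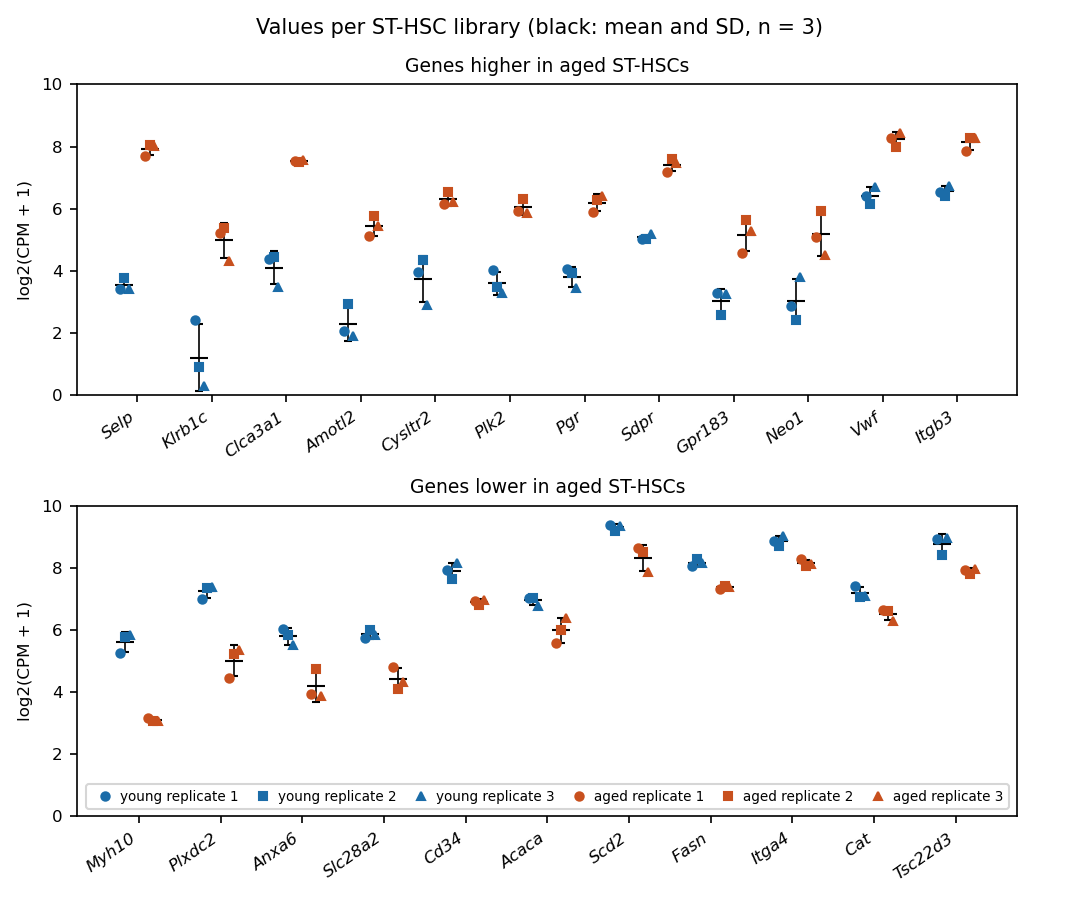
Log2(CPM + 1) of 12 genes that rose (upper panel) and 11 that fell (lower panel) in aged ST-HSCs, one symbol per library and replicate, blue for young and orange for aged, with the mean and SD in black (n = 3). In every column the young and aged symbols occupy separate ranges, and the rises span more of the axis than most of the falls. The genes were picked among called genes, and the rule for the largest changes required no overlap, so this separation follows from the choice.

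The 250 bases upstream of the start site are shown for Selp, Sdpr and Clca3a1, whose rise kept its call in every fit, and for Fasn, the lower gene of lipid synthesis that did so. They are from RefSeq's GRCm38.p6 table, read 5′ to 3′ on the gene's strand, and capitals mark the CCAAT motif of the factor NF-Y or its reverse complement ATTGG. Selp lies on the plus strand of chromosome 1 and its window is chr1:164115014-164115263. Sdpr is on the plus strand at chr1:51288876-51289125, Clca3a1 on the minus strand at chr3:144760978-144761227 and Fasn on the minus strand at chr11:120824548-120824797.
Selp: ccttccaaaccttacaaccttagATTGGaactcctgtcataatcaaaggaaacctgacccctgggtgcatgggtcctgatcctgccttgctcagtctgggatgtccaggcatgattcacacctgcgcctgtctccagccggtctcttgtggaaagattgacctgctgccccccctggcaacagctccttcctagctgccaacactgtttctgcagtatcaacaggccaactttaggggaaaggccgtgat
Sdpr: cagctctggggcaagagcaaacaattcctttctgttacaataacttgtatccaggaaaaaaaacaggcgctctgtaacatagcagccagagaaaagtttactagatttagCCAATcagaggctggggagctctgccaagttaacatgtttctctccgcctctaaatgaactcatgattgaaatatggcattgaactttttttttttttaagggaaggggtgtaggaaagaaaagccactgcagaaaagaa
Clca3a1: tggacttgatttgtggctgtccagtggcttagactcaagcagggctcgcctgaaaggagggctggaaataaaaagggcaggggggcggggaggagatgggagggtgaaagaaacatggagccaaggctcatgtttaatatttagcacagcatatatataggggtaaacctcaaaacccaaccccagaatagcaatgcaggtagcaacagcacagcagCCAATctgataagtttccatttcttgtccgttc
Fasn: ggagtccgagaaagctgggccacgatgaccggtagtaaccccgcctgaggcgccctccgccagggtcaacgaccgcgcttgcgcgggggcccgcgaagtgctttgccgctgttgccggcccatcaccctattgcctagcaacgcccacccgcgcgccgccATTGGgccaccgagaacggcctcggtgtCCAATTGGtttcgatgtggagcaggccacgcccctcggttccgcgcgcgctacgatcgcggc
The 3 risen genes had 1 CCAAT match each, 227, 140 and 33 bases before the start in Selp, Sdpr and Clca3a1, and Fasn had 3 between 59 and 90 bases before it. The windows of Plk2, another gene whose rise kept its call in every fit, and of Acaca, another lower gene of lipid synthesis, held 0 CCAAT matches. They are not printed, so the windows shown were not drawn at random with respect to this motif. The Acaca window, chr11:84195188-84195437, lies inside the gene's span of chr11:84129672-84401651 and so belongs to an inner start. Selp also held 1 match to TGANTCA, the AP-1 motif. The table held a window for 9679 of the tested genes, 58 of the 80 higher and 21 of the 29 lower genes. With both strands searched, CCAAT was found in 36.5% of all windows, in 39.7% of those of higher genes and in 33.3% of those of lower genes. The GATA motif AGATAA was in 5.81% of all windows and in 5 of the 58 higher genes (8.62%). TGTGGT, bound by RUNX factors, was in 10.8% of all windows, in 10.3% of higher and in 5 of the 21 lower genes (23.8%). The AP-1 motif was in 4.11% of all windows and in 3 of the 58 higher genes (5.17%). A STAT motif, TTCCNGGAA, and a sterol regulatory motif, TCACNCCAC, were in 0.971% and 0.93% of all windows and in 0 windows of either set. These matches are descriptions of letters, with no test.

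A group of genes had 0 counts in young ST-HSCs and was counted in every aged library. At 0 counts in all 3 young and above 0 in all 3 aged ST-HSC libraries were 130 genes, 73 of them tested, while the reverse held for 8 genes, 2 of them tested. The same switch toward detection was seen for 118 genes in LT-HSCs and 313 in bulk-HSCs. The aged ST-HSC libraries had more genes detected than the young, and the part of detection in this difference was not tested. Of these genes 8 passed the test, and their folds are lower bounds set against 3 counts in each young library. These bounds cover counting error only, and young replicate 3 had 0 counts for 166 genes with a median of 200 counts or more. Osmr, the oncostatin M receptor, had 18.6, 16.7 and 18.4 CPM in aged libraries, at least 120-fold higher than the floor in young ones (edgeR, adjusted p = 0.0365). Matn4, an extracellular matrix protein linked to HSC proliferation, had 14.4, 10.6 and 11.2 CPM, at least 80.8-fold higher (edgeR, adjusted p = 0.0351). Tmem215, Muc1 and Ntn4, a membrane protein, a mucin and a netrin, were at least 67.9, 57.1 and 48.0-fold higher, with adjusted p of 0.0499, 0.00948 and 0.0365 in edgeR. Epor, the erythropoietin receptor on the minus strand of chr9:21958897-21963506, had 9.53, 2.00 and 4.22 CPM in aged libraries, at least 35.2-fold higher (edgeR, adjusted p = 0.00434). Hoxb6 and Apba1 were at least 24.99 and 21.6-fold higher, with adjusted p of 0.0351 and 0.00339 in edgeR. Of the 8, Muc1, Epor and Apba1 kept an adjusted p under 0.05 when any library was left out, and the other 5 had none in any of the 6 fits, with adjusted p between 0.0634 and 0.130.

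The switch was not shared by the other fractions for all 8 genes. Hoxb6 had 13.9, 9.70 and 4.86 CPM in young LT-HSCs and 6.44, 8.08 and 10.3 CPM in aged LT-HSCs. Apba1, an adaptor of vesicle traffic, had 9.15, 9.01 and 3.63 CPM in young LT-HSCs and 6.22, 9.72 and 6.24 CPM in aged LT-HSCs. Epor had 2.83, 4.65 and 0.996 CPM in young and 2.62, 8.08 and 4.04 CPM in aged LT-HSCs. Osmr followed the ST-HSC pattern more closely, with 0, 4.75 and 0 CPM in young and 42.8, 31.2 and 36.1 CPM in aged LT-HSCs. Another 3 genes were close to 0 in young ST-HSCs. C4b, a complement component whose paralog C4a shares reads and which is therefore uncertain, had 1.42, 0 and 0 CPM in young and 51.2, 63.2 and 94.4 CPM in aged ST-HSCs (edgeR, adjusted p = 0.020, up to 0.0725 without 1 library). Chrm3, a muscarinic acetylcholine receptor, had 0, 0.634 and 0 CPM in young and 25.9, 28.3 and 22.1 CPM in aged libraries (edgeR, adjusted p = 0.00948) and kept its call in all fits. Dsc2, a desmosomal cadherin, had 4.15, 3.68 and 15.03 CPM in aged libraries against at most 0.189 CPM in young ones (edgeR, adjusted p = 0.0391, up to 0.139).

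Receptor and signalling genes were also among those that rose. Cysltr2, a receptor for cysteinyl leukotrienes, had 14.4, 19.3 and 6.47 CPM in young and 70.3, 90.9 and 72.6 CPM in aged ST-HSCs (log2 fold change 2.54 ± 0.34, edgeR, adjusted p = 0.000779). Pgr, the progesterone receptor, had 15.7, 14.1 and 9.82 CPM in young and 58.7, 76.3 and 83.9 CPM in aged ST-HSCs (2.47 ± 0.27, edgeR, adjusted p = 0.000104). Amotl2, an angiomotin family protein of cell junctions, had 3.12, 6.62 and 2.72 CPM in young and 33.3, 53.2 and 42.7 CPM in aged ST-HSCs (3.37 ± 0.39, edgeR, adjusted p = 0.000168). Each of these 3 genes was separated between the ages and kept its call in every fit. Gpr183, an oxysterol receptor that guides immune cells, rose from 7.35 ± 2.09 to 36.4 ± 13.1 CPM (SD, n = 3; edgeR, adjusted p = 0.0173), and its adjusted p reached 0.0836 when young or aged replicate 2 was left out. Neo1, a netrin and repulsive guidance molecule receptor, rose from 7.80 ± 4.46 to 38.3 ± 19.6 CPM (SD, n = 3; edgeR, adjusted p = 0.00912, and 0.0575 without aged replicate 2). Klrb1c, the NK1.1 receptor of natural killer cells, had 4.30, 0.861 and 0.227 CPM in young and 36.5, 40.5 and 19.002 CPM in aged ST-HSCs (edgeR, adjusted p = 0.0186, up to 0.0701). It was the 1 call of 4 tested T and NK cell markers, whose sums were 6.07 to 27.2 CPM in young and 36.8 to 55.7 CPM in aged libraries, while Ncr1, Gzma and Gzmb were at 0 in all 6 libraries. Trim47, a ubiquitin ligase of the tripartite motif family, had 139, 103 and 113 CPM in young and 311, 325 and 341 CPM in aged ST-HSCs (1.46 ± 0.14, edgeR, adjusted p = 5.16e-05). Pgrmc1, a heme-binding membrane protein, owed its call to aged replicate 3, with 1271 CPM there against 106 and 109 in the other aged and 67.6 to 77.6 CPM in young libraries (edgeR, adjusted p = 0.0499, and 0.255 without that library).

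Fewer genes fell, and cytoskeletal, adhesion and lipid synthesis genes were among them. Myh10, the heavy chain of nonmuscle myosin IIB at chr11:68691559-68816632, had 37.1, 53.4 and 55.6 CPM in young and 7.86, 7.37 and 7.34 CPM in aged ST-HSCs. Its log2 fold change was -2.69 ± 0.33 (SE, edgeR, adjusted p = 0.000247). Plxdc2, a transmembrane plexin-domain protein at chr2:16356304-16755839, had 127, 161 and 164 CPM in young and 20.9, 36.3 and 39.8 CPM in aged libraries (-2.22 ± 0.28, edgeR, adjusted p = 0.000312). Both genes fell in every left-out fit. Anxa6, a calcium-dependent membrane-binding annexin, had 63.8, 56.5 and 44.0 CPM in young and 14.1, 25.8 and 13.5 CPM in aged libraries (edgeR, adjusted p = 0.010, up to 0.0671). Slc28a2, a sodium-coupled nucleoside transporter, went from 56.9 ± 5.63 to 20.6 ± 5.64 CPM (SD, n = 3; edgeR, adjusted p = 0.0299, up to 0.156). Itga4, the alpha 4 integrin subunit that binds VCAM1 in the marrow, went from 467 ± 51.5 to 283 ± 20.98 CPM (edgeR, adjusted p = 0.00926, and 0.0631 without aged replicate 2). It was the 1 member of the adhesion and niche homing list that fell, while Selp, Itgb3, Itga6, Neo1 and Alcam rose among 30 tested, and the list's median log2 fold change was 0.11.

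In fatty acid synthesis Fasn, Acaca and Scd2 fell. Fasn, fatty acid synthase, had 267, 308 and 281 CPM in young and 159, 170 and 166 CPM in aged ST-HSCs, a log2 fold change of -0.79 ± 0.13 (SE, edgeR, adjusted p = 0.00415, between 0.00770 and 0.0236 without 1 library). Acaca, the carboxylase that makes its malonyl-CoA substrate, had 130, 130 and 109 CPM in young and 46.6, 62.2 and 82.8 CPM in aged libraries (edgeR, adjusted p = 0.0223, up to 0.112). Scd2, a stearoyl-CoA desaturase, had 662, 580 and 653 CPM in young and 396, 359 and 230 CPM in aged libraries (edgeR, adjusted p = 0.0196, up to 0.0807). In a list of fatty acid and sterol synthesis genes written after these values were seen, 25 of 30 tested members had a fold change below 0. Of all genes tested, 6081 of 12808 did. The list's median log2 fold change was -0.46 against 0.02 over all genes. That list's summed level was 2926 to 3069 CPM in young and 1934 to 2270 CPM in aged ST-HSCs, without overlap, and apart from these 3 genes no listed member passed the test. Cyp51, a demethylase of the sterol branch, had 57.2, 59.6 and 112 CPM in young and 34.2, 36.2 and 38.005 CPM in aged libraries (edgeR, adjusted p = 0.0945). Without 1 library, 1 or 2 members of the list were called.

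Further genes that fell were of several kinds. Oxct1, which activates ketone bodies, went from 131 ± 16.4 to 68.4 ± 2.58 CPM (SD, n = 3; edgeR, adjusted p = 0.0429, up to 0.172). Tsc22d3, the glucocorticoid-induced leucine zipper, went from 442 ± 90.6 to 237 ± 14.9 CPM (edgeR, adjusted p = 0.0264, up to 0.133), and Pik3cd, the leukocyte PI3-kinase subunit p110δ, from 237 ± 54.3 to 129 ± 19.01 CPM (edgeR, adjusted p = 0.0272, up to 0.143). Kcnq1ot1, a long imprinted antisense RNA, went from 894 ± 139 to 502 ± 36.0 CPM (edgeR, adjusted p = 0.0109, up to 0.0775), and the kit's strand use in counting is not given in the sources used here. Klf12, a transcriptional repressor, went from 70.2 ± 14.1 to 39.9 ± 2.83 CPM (edgeR, adjusted p = 0.0485, up to 0.191). Herc1, Huwe1, Nsd1 and Macf1, which encode large proteins, fell by at most 0.55 on the log2 scale, at adjusted p between 0.0295 and 0.0425 in edgeR. None of these 4 calls was steady, since Herc1, Huwe1 and Nsd1 were called in 0 of the 6 fits that left out a library and Macf1 in 1, with adjusted p up to 0.138, 0.177, 0.175 and 0.136 in that order. Lower genes had long transcripts. The median longest transcript was 5890 bases in lower, 4283.5 in higher and 3364.5 in all tested genes, and 16 of the 29 lower genes and 23 of the 80 higher genes lay in the longest of 5 equal groups by transcript length, whose median log2 fold change was -0.02 against 0.05 in the shortest group. The part of transcript length in the calls was not tested. Gm38431, whose locus on chr9:21067514-21091997 overlaps Raver1 and Fdx1l on the same strand, and Rps4l, a processed pseudogene, passed the test as lower (edgeR, adjusted p = 0.0249, up to 0.136, and 0.0365, up to 0.172) and are uncertain because reads can be assigned to their neighbours or copies. The lower calls of Pdcd2 and Ociad1 (edgeR, adjusted p = 0.0344 and 0.0396) rested on young replicate 3, without which their adjusted p was 1 and the log2 fold change of Ociad1 was 0.017.

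The list of sort markers held 7 genes, those of surface markers and the reporter gene Hoxb5, and 6 were tested. Of these Cd34 fell, Slamf1 rose and 4 were not called, and 0 to 2 were called with 1 library left out. Cd34, a sialomucin whose protein was stained for the sort, had 240, 199 and 285 CPM in young and 121, 111 and 123 CPM in aged ST-HSCs, a log2 fold change of -1.03 ± 0.20 (SE, edgeR, adjusted p = 0.0186, up to 0.101). Slamf1, which encodes CD150, had 13.9, 27.3 and 24.5 CPM in young and 39.6, 43.2 and 47.9 CPM in aged libraries (0.99 ± 0.22, edgeR, adjusted p = 0.0446, up to 0.150). Neither gene overlapped between the ages. Flt3, the receptor also called Flk2 that marks multipotent progenitors, had 89.3, 50.0 and 52.8 CPM in young and 15.7, 18.1 and 25.2 CPM in aged libraries. Its values did not overlap but it did not pass the test (-1.70 ± 0.49, edgeR, adjusted p = 0.133). Ly6a, which encodes Sca-1, had 92.8, 64.2 and 152 CPM in young and 81.7, 81.3 and 102 CPM in aged libraries, which overlapped. The progenitor genes Dntt and Il7r were at 0 counts in all 6 libraries, and the list of progenitor markers, to which Cd34 and Flt3 belong, summed to 347 to 529 CPM in young and 277 to 308 CPM in aged ST-HSCs. Of the list's 5 tested members Cd34 was the 1 call, and 2 had a fold change above 0 and 3 below. Cd53 of that list was higher instead, with 11.6, 1.18 and 13.8 CPM in young and 37.9, 19.7 and 32.5 CPM in aged libraries. Among 38 HSC identity genes 2 rose, Slamf1 and Vldlr, 0 fell, and the median log2 fold change was 0.03. Vldlr, a lipoprotein receptor, had 53.3, 24.4 and 107 CPM in young and 230, 233 and 232 CPM in aged libraries (edgeR, adjusted p = 0.0446, up to 0.148). Procr, which encodes the EPCR marker of HSCs, had 91.8, 97.9 and 78.1 CPM in young and 129, 155 and 126 CPM in aged libraries (edgeR, adjusted p = 0.0562).

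**Figure D3:**
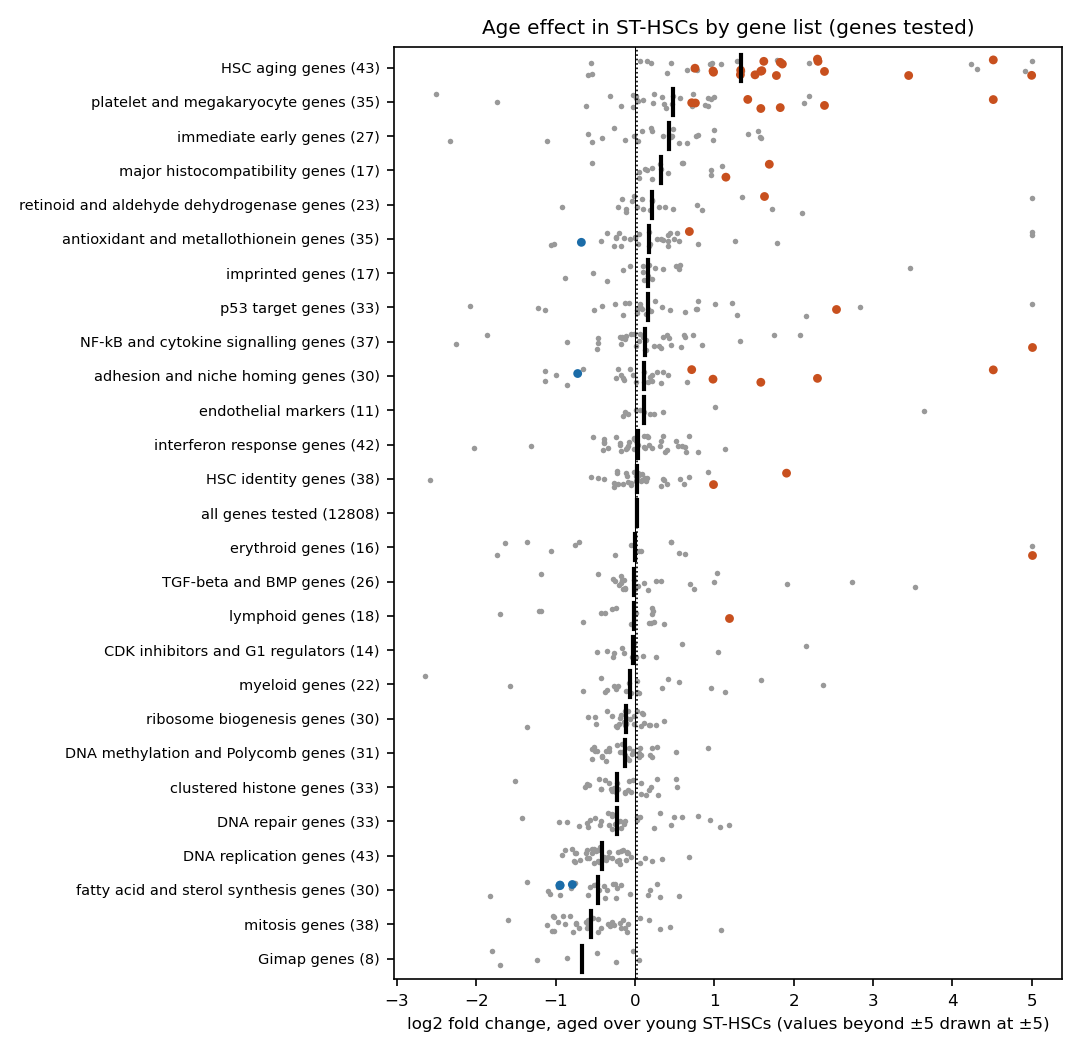
Log2 fold change of aged over young ST-HSCs for the tested members of each gene list with at least 8 of them (numbers in brackets), with called genes in orange (higher) or blue (lower), the list's median as a bar and the median of all genes as a dotted line. The HSC aging list has the highest median, 1.33, and the Gimap list the lowest, -0.67, while most lists straddle 0 with few or no called members.

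Proliferation genes had mostly lower values, with no member past the test. Among all genes tested, 6081 of 12808 had a fold change below 0. Of 43 DNA replication genes 38 had a fold change below 0 (median -0.41 on the log2 scale), and of 38 mitosis genes 33 did (median -0.56). Their sums overlapped between the ages, at 2461 to 3195 CPM in young and 1718 to 2629 CPM in aged libraries for replication, and at 1324 to 1745 and 893 to 1582 CPM for mitosis. At an unadjusted p under 0.05, where 4.02% of all genes were lower and 5.64% higher, 8 replication and 2 mitosis genes were lower and 0 were higher in edgeR, and DESeq2 called 2 and 0 of them, limma-voom 0 and 0. Mki67, the classical proliferation marker, had 285, 159 and 279 CPM in young and 169, 66.1 and 199 CPM in aged ST-HSCs. Mcm6, a subunit of the replicative helicase, had 306, 257 and 339 CPM in young and 171, 157 and 260 CPM in aged libraries (edgeR, adjusted p = 0.158). Aged replicate 2 was lowest for both genes. Clustered histone genes had a median of -0.22 (33 tested, 0 called), DNA repair genes -0.22 (33 tested, 0 called) and ribosome biogenesis genes -0.11 (30 tested, 0 called). At an unadjusted p under 0.05, 1, 3 and 4 members of these lists were lower and 0 higher in edgeR, and DESeq2 called 0, 1 and 1, limma-voom 0, 0 and 1. Among 14 CDK inhibitors and G1 regulators 0 were called in edgeR, 1 was higher and 1 lower with an unadjusted p under 0.05, and DESeq2 and limma-voom called 1 each. Ccnd2, a D-type cyclin, had 622, 870 and 770 CPM in young and 510, 561 and 560 CPM in aged libraries without overlap (edgeR, adjusted p = 0.0531).

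Stress and inflammation genes gave single calls. Among 33 p53 target genes Plk2 rose and 0 fell, with a list median of 0.16. Plk2, a polo-like kinase that p53 induces, had 15.1, 10.2 and 8.80 CPM in young and 60.1, 79.1 and 57.6 CPM in aged ST-HSCs, a log2 fold change of 2.53 ± 0.35 (SE, edgeR, adjusted p = 0.000852). It was called in every left-out fit. Among 37 NF-kB and cytokine signalling genes Osmr rose and 0 fell (median 0.13). Stat3, a transcription factor downstream of such receptors, had 309, 274 and 268 CPM in young and 366, 389 and 413 CPM in aged libraries (edgeR, adjusted p = 0.0619), and Socs3, its feedback inhibitor, 4.11, 0.952 and 21.2 CPM in young and 32.8, 34.6 and 43.3 CPM in aged libraries (edgeR, adjusted p = 0.216). Both genes were separated between the ages without passing the test. Of 42 interferon response genes 0 were called in edgeR and the median was 0.03, while 7 were higher and 1 lower with an unadjusted p under 0.05 and DESeq2 called 1, limma-voom 0. Of 27 immediate early genes 0 were called, although 19 had a fold change above 0 and the median was 0.43. In edgeR 3 were higher and 3 lower with an unadjusted p under 0.05, and DESeq2 called 4, limma-voom 0. Fosb, an AP-1 subunit, went against that median with 44.9, 39.2 and 99.1 CPM in young and 11.2, 10.2 and 14.8 CPM in aged libraries (edgeR, adjusted p = 0.0591).

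Antigen presentation genes had mostly higher values. Of 17 major histocompatibility genes 2 rose, H2-Aa and H2-Eb1, 0 fell and 16 had a fold change above 0, with a median of 0.33. Among all genes tested, 0.625% rose and 6717 of 12808 had a fold change above 0. H2-Aa, a class II alpha chain, had 64.9, 77.4 and 68.0 CPM in young and 142, 159 and 165 CPM in aged ST-HSCs (1.15 ± 0.19, edgeR, adjusted p = 0.00534). H2-Eb1, a class II beta chain, had 30.9, 28.0 and 30.6 CPM in young and 101, 85.9 and 103 CPM in aged libraries (1.69 ± 0.30, edgeR, adjusted p = 0.00919). Both calls held in every left-out fit. Cd74, the invariant chain that escorts class II molecules, had 101, 129 and 60.6 CPM in young and 198, 183 and 184 CPM in aged libraries (edgeR, adjusted p = 0.0531). The list's sums were 4977 to 5200 CPM in young and 6099 to 6641 CPM in aged libraries.

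The myeloid, lymphoid and erythroid lists had median fold changes near that of all genes. Of 22 myeloid genes 0 were called with a median of -0.07, and of 18 lymphoid genes 1 rose with a median of -0.02. That gene, Mef2c, a MADS box factor, had 90.8, 94.9 and 130 CPM in young and 230, 255 and 234 CPM in aged libraries (edgeR, adjusted p = 0.0438, up to 0.150). Of 16 erythroid genes Epor alone was called, and of the myeloid genes 2 were higher and 2 lower with an unadjusted p under 0.05 in edgeR, with 3 called by DESeq2 and 1 by limma-voom. Among myeloid genes Cebpb, a granulocyte and macrophage factor, had 7.70, 10.5 and 4.14 CPM in young and 17.97, 21.3 and 28.2 CPM in aged libraries (edgeR, adjusted p = 0.152). Csf2rb, the shared receptor chain for GM-CSF and IL-3, had 21.96, 41.2 and 32.8 CPM in young and 11.4, 6.37 and 14.5 CPM in aged libraries (edgeR, adjusted p = 0.177). The 2 genes differed in direction. Gimap genes, GTPases of lymphocyte survival, had 7 of 8 fold changes below 0 and a median of -0.67 with 0 called in edgeR, 3 lower at an unadjusted p under 0.05, 1 called by DESeq2 and 0 by limma-voom. Gimap1 had 102, 91.8 and 105 CPM in young and 25.5, 70.3 and 69.2 CPM in aged libraries (edgeR, adjusted p = 0.174).

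Metabolic, growth factor and chromatin lists held few calls. In the retinoid and aldehyde dehydrogenase list, 23 tested, Aldh1a1 was the 1 call. Dhrs3, a reductase of retinaldehyde, had 8.31, 9.11 and 12.8 CPM in young and 34.9, 41.3 and 23.5 CPM in aged libraries (edgeR, adjusted p = 0.0719). In the antioxidant list, 35 tested, Gstm1 rose and Cat fell. Gstm1, a glutathione transferase, went from 95.9 ± 14.9 to 154 ± 12.03 CPM (SD, n = 3; edgeR, adjusted p = 0.0343, up to 0.143). Cat, catalase, went from 145 ± 19.6 to 90.5 ± 11.8 CPM (edgeR, adjusted p = 0.0284, up to 0.135). The metallothionein Mt1 was at 0 counts in the 3 young libraries and at 12.2, 8.28 and 9.38 CPM in aged ones (edgeR, adjusted p = 0.0717). Id2, a BMP-responsive inhibitor of bHLH factors, had 5.90, 1.86 and 0 CPM in young and 29.3, 40.4 and 20.4 CPM in aged libraries (edgeR, adjusted p = 0.0854), and it was the TGF-beta and BMP gene with the smallest p of 26 tested, of which 0 were called in edgeR and 4 were higher at an unadjusted p under 0.05, with 1 called by DESeq2 and 1 by limma-voom. Of 31 DNA methylation and Polycomb genes 0 were called with a median of -0.12, and of 17 tested members of an imprinted gene list that does not hold Kcnq1ot1, described above as lower, 0 were called with a median of 0.16. At an unadjusted p under 0.05 in edgeR, 1 of the former was higher and 2 lower and 2 of the latter were higher, and DESeq2 called 1 in each list, limma-voom 0. Endothelial markers gave 0 calls among 11 tested in edgeR, 1 was higher at an unadjusted p under 0.05, DESeq2 and limma-voom called 0, their sums were 939 to 1027 CPM in young and 873 to 1041 CPM in aged libraries, and Cdh5 and Flt1 of that list were at 0 throughout.

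The 109 genes were then read in the other fractions, whose libraries are separate from those of ST-HSCs. The bulk gate contains ST-HSCs, however, and shared animals are not stated. The calls and the p values of all fractions came from the same fit of 18 libraries. Its estimate of the spread was shared, so genes with little spread in LT- and bulk-HSCs passed more easily in every fraction. The shares by p below are therefore no independent check of the calls. With the 6 ST-HSC libraries alone, 25 of the 109 were called. Of the 80 higher genes, 77 were also higher in aged LT-HSCs, where 53.6% of all genes were, and 59 had an unadjusted p under 0.05 in that direction (5.2% of all genes). In bulk-HSCs 78 were higher (53% of all genes) and 69 had an unadjusted p under 0.05 (8.17%). Of the 29 lower genes, 28 were lower in LT-HSCs (46.3% of all genes) and 27 in bulk-HSCs (47.0%), and 23 and 16 had an unadjusted p under 0.05 in that direction (3.61% and 5.08% of all genes). At an adjusted p under 0.05, 22 of the higher genes passed in LT-HSCs (0.304% of all genes) and 53 in bulk-HSCs (1.53%), and 9 and 11 of the lower genes did (0.141% and 0.445%). The median log2 fold change of the higher genes was 1.54 in ST-HSCs, 0.91 in LT-HSCs and 1.31 in bulk-HSCs. That of the lower genes was -0.88, -0.59 and -0.41. The ST-HSC medians come from the values that chose the genes and are not comparable with the other medians as effects.

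**Figure D4:**
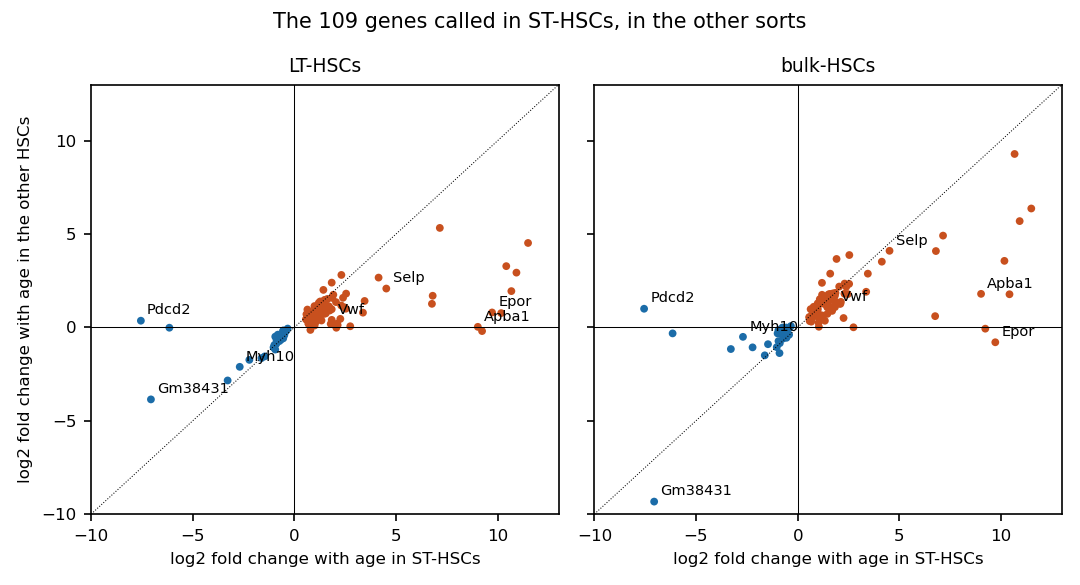
Log2 fold change with age of the 109 genes called in ST-HSCs (x axis) against that in LT-HSCs (left) and bulk-HSCs (right), orange for higher and blue for lower genes, with the line of equal change dotted. Nearly all points lie in the quadrants of equal sign, and Pdcd2, Epor and Apba1 are among the points far from the line.

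Whether the age effect itself differed was tested with interaction terms. Between ST-HSCs and LT-HSCs 0 of 12808 genes differed in edgeR at an adjusted p under 0.05, 502 had an unadjusted p under 0.05 (3.92%), and DESeq2 called 83. The smallest p values belonged to Apba1, Vwf and Epor. Vwf rose in ST-HSCs, by 1.83 in log2 fold change from 85.3 ± 15.9 to 304 ± 49.3 CPM (SD, n = 3), and had 652 ± 97.4 CPM in young and 859 ± 178 CPM in aged LT-HSCs. Its log2 fold change there was 0.40. The difference of 1.43 ± 0.28 (SE) had an adjusted p of 0.295 in edgeR. Aged ST-HSCs thus had less Vwf RNA than young LT-HSCs, without overlap between the libraries. Selp had 41.7, 89.9 and 127 CPM in young and 346, 335 and 410 CPM in aged LT-HSCs, and the difference in its age effect was 2.44 ± 0.63 (edgeR, adjusted p = 0.855).

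Between ST-HSCs and bulk-HSCs 8 genes differed in their age effect (0.0625%, with 5.78% of genes at an unadjusted p under 0.05), Gpx7, 2210408F21Rik, Epor, Tc2n, Brdt, Ttll1, Il1rapl2 and Atp8a1. Epor alone had the larger rise in ST-HSCs, and of the others 6 were at 0 counts in all 3 young bulk-HSC libraries. Atp8a1, a phospholipid flippase, was the exception, with 209, 289 and 247 CPM in young and 295, 212 and 235 CPM in aged ST-HSCs. In bulk-HSCs it rose from 144 ± 7.19 to 368 ± 17.6 CPM (SD, n = 3), and the difference in log2 fold change was -1.36 ± 0.23 (edgeR, adjusted p = 0.0423). The 6 genes at 0 in young bulk-HSCs had means of 3.62 to 9.67 CPM in young ST-HSCs and 2.86 to 11.9 CPM in young LT-HSCs. Both fractions are parts of the bulk gate, and the source of the 0 counts was not tested. Epor had 6.10, 17.4 and 9.44 CPM in young and 4.71, 6.58 and 7.62 CPM in aged bulk-HSCs, which overlapped. Young LT-HSCs had 2.83, 4.65 and 0.996 CPM and young ST-HSCs 0. Every young bulk-HSC library thus lay above those of both parts of its gate, and the source of this was not tested. These 8 calls were not steady. In the 6 fits without 1 ST-HSC library between 0 and 6 genes were called, with 0 in every fit except that without young replicate 2. Myh10, which fell in ST-HSCs, had 35.2 ± 6.89 CPM in young and 24.7 ± 8.37 CPM in aged bulk-HSCs, and the difference of its age effect was -2.18 ± 0.44 (edgeR, adjusted p = 0.115). Cd34 was lower by nearly the same amount in the 3 fractions, with log2 fold changes of -1.03 in ST-HSCs, -1.08 in LT-HSCs and -1.06 in bulk-HSCs, and it passed the test in each.

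**Figure D5:**
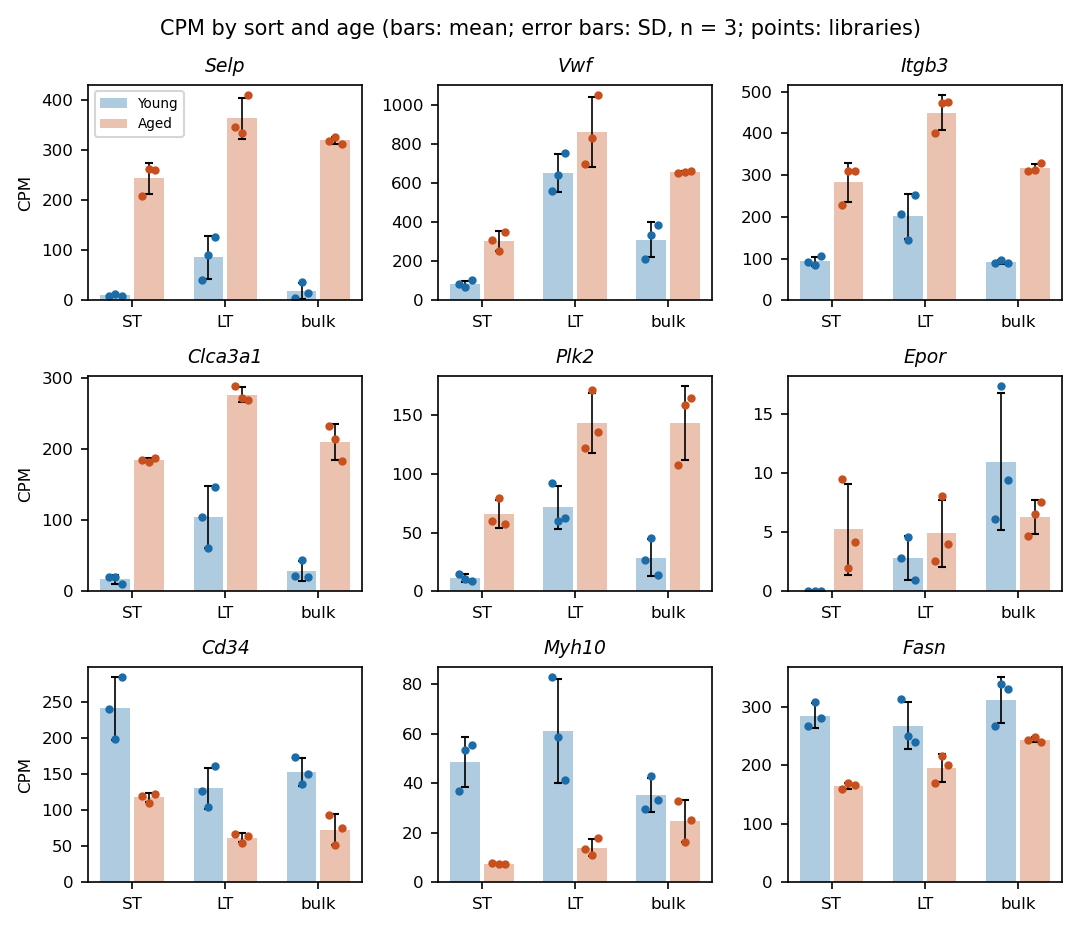
CPM of 9 genes in ST-HSCs, LT-HSCs and bulk-HSCs of young (blue) and aged (orange) mice, with bars at the mean, error bars for the SD (n = 3) and points for libraries. Vwf in aged ST-HSCs stays below its level in young LT-HSCs, Epor is at 0 in all 3 young ST-HSC libraries, and Cd34 is lower with age in each fraction.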

How the data were processed

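Cells were sorted from the marrow, and libraries were made with the KAPA RNA HyperPrep kit with RiboErase and sequenced on an Illumina instrument. Per the study's methods and the submitters' notes, reads were aligned to mm10 with HISAT2 and handled with SAMtools 1.7 and StringTie 1.3.4d. Molecular identifiers are not mentioned in the sources used here. The authors deposited raw counts per gene for 24421 genes in 18 libraries. The gene annotation, the step from StringTie to counts and the use of strand are not given in the sources used here. Total counts were 18527435 to 22047374 in the ST-HSC libraries.

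Genes with a mean of at least 1 CPM over the 18 libraries (12808) were kept. CPM were computed here from TMM-normalized library sizes with edgeR 4.0.16 in R 4.3.3. One quasi-likelihood model of 6 group means, with 12 residual degrees of freedom, gave the age effect in each fraction and the differences between fractions, with Benjamini-Hochberg adjustment over all tested genes and a threshold of 0.05. The pipeline was tested on simulated data. Bounds for genes at 0 in 1 age use 3 counts per library. DESeq2 1.42.0, limma-voom with quality weights (limma 3.58.1), other scalings, other filters, a fit of ST-HSC libraries alone, a replicate block and the omission of each library were tried. The genes named were the 20 largest rises and 15 largest falls among called genes whose ages did not overlap and whose higher mean reached 5 CPM, called list members and the 3 others of each list with the smallest p, genes called in an interaction or else the 3 with the smallest p, the 5 highest peaks per library and markers, and Trim47, Hoxb6, Herc1, Huwe1, Nsd1 and Macf1 were named after their values were seen. The members and gene lists were chosen with earlier results of these data known. Coordinates, overlaps and transcript lengths are from GENCODE M21 on mm10, and promoters from RefSeq GRCm38.p6. A few genes are not reported here.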

Additional observations from a re-analysis of the deposited data

Results flagged for a closer look

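The change with age differed between ST-HSCs and bulk-HSCs, by the interaction term in edgeR, for 8 genes. The difference in log2 fold change, ST-HSCs minus bulk-HSCs, was 10.52 for Epor, -10.72 for Gpx7, -9.38 for 2210408F21Rik, -9.81 for Tc2n, -9.78 for Brdt, -10.32 for Ttll1, -8.96 for Il1rapl2 and -1.36 for Atp8a1. Adjusted p lay between 0.0365 and 0.0468. Except for Atp8a1 these values depend on the prior count, since Epor was at 0 counts in the 3 young ST-HSC libraries and the other 6 genes in the 3 young bulk-HSC libraries. Gpx7, a peroxidase of the endoplasmic reticulum, had means of 6.87 CPM in young and 3.38 CPM in aged ST-HSCs and of 0 and 5.17 CPM in bulk-HSCs. Ttll1, a tubulin polyglutamylase subunit, had means of 9.67 and 9.24 CPM in ST-HSCs and of 0 and 7.59 CPM in bulk-HSCs. Means in young LT-HSCs, which the bulk gate also contains, were 6.86 CPM for Gpx7 and 11.9 CPM for Ttll1.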

How the results depend on the processing

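The count of genes called in ST-HSCs, 109, was 448 in DESeq2 (68.3% of them higher), 140 in limma-voom, 27 in a fit of the 6 ST-HSC libraries alone (85.2% higher), and 45 to 120 with 1 library left out, of which 45 without aged replicate 2. Without young replicate 3, 57 of the 109 remained called. Other scalings and filters gave 99 to 116. The difference between ST-HSCs and LT-HSCs, 0 genes, was 83 in DESeq2 and 0 to 2 with 1 library left out. That between ST-HSCs and bulk-HSCs, 8 genes, was 128 in DESeq2, 2 with library size alone, 3 without the filter on low counts, 0 in limma-voom, 0 with the replicate block and 0 to 6 with 1 library left out. Called list members, 32, were 72 in DESeq2, 14 in the ST-HSC libraries alone and 14 to 33 with 1 library left out. Why these counts moved was not tested. With the block for replicate number 96 genes were called, 82 of them among the 109. That block joined equal numbers of both ages, which cannot share mice, so it does not test pairing. For the differences between fractions the block was set within each age. Same-numbered ST-HSC and LT-HSC libraries correlated between 0.017 and 0.12 in their deviations from the group means, and 5 of 6 ST-HSC libraries correlated best with their own number in LT-HSCs, while pairs with bulk-HSCs lay between -0.044 and 0.038. Whether the numbers mark shared mice is not stated, and they were not used as pairs. Followed over 14 fits were 94 results of named genes. They were age effects in ST-HSCs or, for the 8 genes that differed from bulk-HSCs, that difference, and Epor entered with both. Of the values, 914 kept direction and side of the threshold, 354 lost the call, 35 gained it and 1 reversed. Another 4 had no adjusted p in DESeq2, and some results had no value in the fit of ST-HSC libraries alone. The reversal was Ociad1, whose log2 fold change was -6.73 to 0.017 with 1 library left out, 0.017 without young replicate 3. With 3 libraries per age, 3 counts amount to 0.136 to 0.162 CPM, which limits calls among weakly counted genes.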
